A study of Rattus norvegicus with 6 samples.

Results

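The genes described here are 10 subunits of the signalling path that runs from inhibitory receptors to potassium channels. They are 6 alpha subunits of heterotrimeric G proteins (Gnal, Gnao1, Gnai1, Gnai2, Gnaz and Gnaq) and the 4 subunits of the G-protein-gated inwardly rectifying potassium (GIRK) channels (Kcnj3, Kcnj6, Kcnj9 and Kcnj5). They were taken by their symbols, each of which matched 1 of the 25629 genes in the files, and Oprm1, the mu opioid receptor, was set beside them. Single-nucleus RNA was measured in the nucleus accumbens, the ventral striatum, of Sprague-Dawley rats aged 90 to 120 postnatal days. No genetic change is named in the labels, and every rat, controls included, had taken heroin by self-administration. That history ran over 7 days at 1 response per infusion and 4 days at 3 responses, then a progressive ratio test on day 12, and sessions at 3 responses on days 13 and 14. Rats then received either saline or naloxone, an opioid receptor antagonist, 1 h before their brains were taken. The design text counts 12 rats, 6 of each sex, joined in 6 libraries of mixed sex, so a library is a pool of animals. The 3 saline libraries are replicates 1, 2 and 3 and the 3 naloxone libraries are replicates 4, 5 and 6. Rats without heroin were not analysed here.

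An alpha subunit binds a receptor on the inner face of the membrane and, once activated, separates from its beta and gamma partners. Alpha subunits of the Gi and Go family lower cyclic AMP, Golf (Gnal) raises it, and Gq (Gnaq) acts through phospholipase C. The beta and gamma subunits that Gi and Go release bind GIRK channels and open them, which makes a neuron less excitable. GIRK1 (Kcnj3) needs a partner such as GIRK2 (Kcnj6) to form channels at the cell surface. In the striatum Golf is the main partner of the dopamine D1 receptor, and mu opioid receptors signal through Gi and Go.

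Levels are given as CPM, the gene's unique molecular identifiers (UMIs, counted RNA molecules) scaled to a common total for each class and library. Since this is a share of a class's RNA, levels are compared within a gene across classes and never between genes. Of 58960 nuclei, 53129 fell in 23 classes with at least 20 nuclei in every library, 16 of them neuronal. A class is called "like" a cell type where its markers allowed a name, and otherwise by its leading gene, as in Inpp5d-led. The 10 genes and the related gene lists were kept out of the clustering. The classes were still built from other genes of the same nuclei, so a test between classes describes classes defined in this way. The Chst9-like class (3699 nuclei) had all 4 of its markers high but only 1 of 7 general spiny neuron markers, and it is called here by that gene. The libraries held 55739350 to 76272798 UMIs. Of 63796 distinct barcodes, 463 occurred in more than 1 library. The median mitochondrial share was 0.565% in naloxone replicate 5 and 0.153% to 0.345% in the other libraries. The oligodendrocyte-like class was uneven across libraries, and its Gpd1-led cluster was almost wholly of naloxone nuclei, with 4, 10 and 31 nuclei from the saline and 708, 735 and 479 from the naloxone libraries. Its Ermn-led cluster held 363 to 1387 nuclei in 5 libraries and 20 in naloxone replicate 5.

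Gnal (ENSRNOG00000010440), which encodes Golf, was highest in 4 classes at nearly the same level, with 804 ± 60.3 CPM in eccentric-like, 796 ± 61.9 in Drd3-Adamtsl1-like, 783 ± 30.1 in Drd1-like and 769 ± 30.7 in Drd2-like nuclei (mean ± SD, n = 6 libraries, as for all levels below unless another n is given). The gaps between these 4 were smaller than the SD over libraries. Within libraries eccentric-like exceeded Drd3-Adamtsl1-like nuclei in 3 of 6, whereas Drd1-like exceeded Drd2-like nuclei in 6 of 6. The next levels were 478 ± 91.1 CPM in the Mt3-led and 468 ± 40.2 CPM in the Chst9-like class. Other neurons ranged down to 129 CPM in Pthlh-like interneurons, and the lowest class was astrocyte-like, at 33.2 ± 9.96 CPM. Within the Drd1-like class the 3 clusters lay at 733, 795 and 889.8 CPM.

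Gnao1 (ENSRNOG00000019482), the Go subunit, was nearly level among neurons and highest in astrocyte-like, Smoc2-led and oligodendrocyte-like nuclei. The 16 neuronal classes lay between 306 and 497 CPM, whereas astrocyte-like nuclei reached 1472 ± 136, the Smoc2-led class 1369 ± 267 and oligodendrocyte-like nuclei 967 ± 67.4 CPM. Precursor-like glia, at 283 ± 18.9 CPM, had a mean below that of every neuronal class. The gap to the lowest, glutamate-like neurons, was smaller than the larger SD and held in 4 of 6 libraries. Committed-precursor-like nuclei, at 521 CPM, had a mean above the highest neuronal one, that of the Mt3-led class, in 4 of 6 libraries and again within the larger SD. Astrocyte-like nuclei carry fewer UMIs, and per nucleus their 4.11 Gnao1 UMIs stood beside 3.38 in Drd1-like, 3.86 in Drd2-like and 5.69 in Slc5a7-led nuclei, a class led by the choline transporter gene. The count per nucleus was thus above those of Drd1-like and Drd2-like nuclei and below that of the Slc5a7-led class. The 2 astrocyte-like clusters differed, at 1769 ± 79.3 CPM in the one led by Slc1a2, a glutamate transporter, and 735 ± 73.5 CPM in the one led by Lama2, a laminin chain. The lowest 6-library mean was 34.3 CPM in the Inpp5d-led class, from 82 UMIs in all. That class had all 5 measured microglia markers but a median of only 1269 UMIs per nucleus, and it also held astrocyte markers at a summed 1475 CPM.

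Gnai1 (ENSRNOG00000057096), a Gi subunit, was highest in oligodendrocyte-like nuclei. The 6 libraries there gave 417, 366 and 365 CPM with saline and 311, 226 and 332 CPM with naloxone, a mean of 336 ± 64.7. The next class, glutamate-like neurons, had 179 ± 48.2 CPM and was lower in each of the 6 libraries (sign flips of the log2 ratios, exact permutation, two-sided, p = 0.031, which 6 libraries cannot go below, adjusted p = 0.104 over the 10 genes). In other neuronal classes Gnai1 stood at 155 ± 15.95 CPM in Chst9-like, 118 ± 11.01 in Drd1-like, 84.0 ± 17.9 in eccentric-like, 70.5 ± 8.07 in Drd2-like and 54.4 ± 11.6 in Drd3-Adamtsl1-like nuclei.

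Gnai2 (ENSRNOG00000016592), a Gi subunit common outside neurons, was highest in endothelial-like (161 ± 104 CPM) and Inpp5d-led nuclei (98.5 ± 16.1 CPM), an order that held in 4 of 6 libraries. Neuronal classes lay between 9.85 and 67.3 CPM, the upper end being the Mt3-led class with a median of 1500 UMIs per nucleus. Gnaz (ENSRNOG00000001313), a Gi relative that pertussis toxin does not act on, was low everywhere. Its highest mean was 11.7 CPM, with an SD of 9.57, and no pair of neighbours in its order of classes differed by more than the larger SD. Gnaq (ENSRNOG00000014183) varied least, by 3.35-fold between its highest and lowest class, from 664 ± 145 CPM in Inpp5d-led to 198 ± 38.9 CPM in Smoc2-led nuclei.

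**Figure D1:**
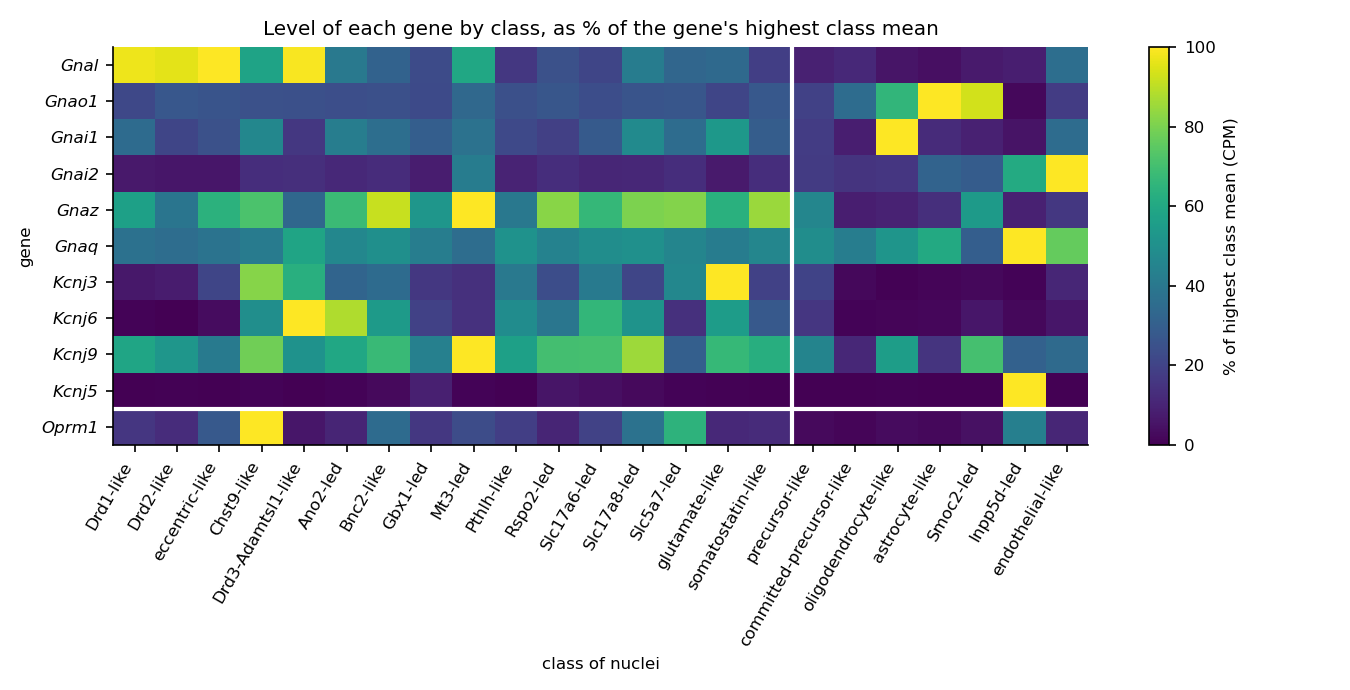
Mean level of each gene in 23 classes of nuclei (columns; 16 neuronal classes left of the white line), as a percentage of the CPM of that gene's highest class, mean of 6 libraries; Oprm1 is the bottom row. Gnal is brightest in 4 neuronal classes, Gnao1 in astrocyte-like and Smoc2-led nuclei, Kcnj5 in the Inpp5d-led class, and Oprm1 in Chst9-like nuclei.

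The GIRK subunits had sharper patterns than the alpha subunits. Kcnj3 (ENSRNOG00000005369), GIRK1, was highest in glutamate-like neurons (832 ± 103 CPM), followed by Chst9-like (682 ± 61.4), Drd3-Adamtsl1-like (525 ± 42.0) and Slc5a7-led nuclei (385 ± 88.8), and each of these 4 exceeded the one named after it in 6 of 6 libraries. When nuclei were assigned by a marker gate in place of clusters, the order of the first 2 turned, with glutamate-like below Chst9-like nuclei in all 6 libraries (log2 ratio -0.76). Drd2-like and Drd1-like nuclei had the lowest neuronal levels, at 63.3 ± 10.2 and 52.5 ± 8.16 CPM. Both class means lay above the 6.34 CPM of oligodendrocyte-like and the 10.3 CPM of astrocyte-like nuclei, which serve here as a measure of free RNA in droplets. Within the Drd1-like class Kcnj3 was uneven. The cluster led by Pde11a, a phosphodiesterase gene, had 84.7 to 112 CPM over the 6 libraries, the cluster led by Ebf1 8.02 to 19.7 and the cluster led by Plcz1 16.9 to 26.7, so the first did not overlap the others. The Ebf1-led cluster held 2778 of the 7904 Drd1-like nuclei. Its mean of 10.8 ± 4.57 CPM was near that of astrocyte-like nuclei, which hold fewer UMIs. The median UMIs per nucleus, relative to the library's median, were 1.77 in this cluster and 0.498 and 0.547 in the astrocyte-like clusters. At unlike depth, similar CPM cannot show whether the cluster lies above free RNA, and its share of free RNA was not tested.

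Kcnj6 (ENSRNOG00000001658), GIRK2, was high in some neuronal classes and low in others. Drd3-Adamtsl1-like nuclei had 334 ± 37.6 CPM, the Ano2-led class 294 ± 11.2, the Slc17a6-led class 221 ± 17.2 and Chst9-like nuclei 165 ± 13.9. The first exceeded the second in 5 of 6 libraries (same exact permutation, p = 0.125, adjusted p = 0.25). At the other end stood eccentric-like nuclei at 10.5 ± 3.65, Drd1-like at 3.68 ± 0.839 and Drd2-like at 1.09 CPM, the last from 53 UMIs in all libraries. After each nucleus was thinned to 1000 UMIs, a Kcnj6 UMI was found in 25.9% of Drd3-Adamtsl1-like and 14.8% of Chst9-like nuclei, against 0.370% of Drd1-like, 0.106% of Drd2-like and 0.373% of oligodendrocyte-like nuclei. Oligodendrocyte-like nuclei had 4.13 CPM and astrocyte-like nuclei 5.39, so the Drd1-like and Drd2-like means were no higher than those in glia, whose nuclei hold fewer UMIs (a median of 1624 per oligodendrocyte-like against 9043 per Drd1-like nucleus). Within the Drd1-like class Kcnj6 was uneven in the way of Kcnj3. The Pde11a-led cluster had 5.88 ± 2.01 CPM (SD, n = 6 libraries), the Ebf1-led cluster 1.46 ± 0.662 and the Plcz1-led cluster 2.00 ± 1.06. The first, in every library, lay above the highest value of the others, 3.58 CPM. How much of the Drd1-like level is free RNA was not tested.

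Kcnj9 (ENSRNOG00000007645), GIRK3, was low in all classes, with at most 20.9 CPM (Mt3-led), 16.4 ± 1.95 CPM in Chst9-like nuclei and no neighbours separated beyond the larger SD. Kcnj5 (ENSRNOG00000033796), GIRK4, was highest in the Inpp5d-led class. That class had 67.1, 122 and 105 CPM in the saline and 107, 81.3 and 103 CPM in the naloxone libraries, from 226 UMIs. The next class, Gbx1-led neurons, had 8.42 ± 1.75 CPM and was lower in each library (same exact permutation, p = 0.031, adjusted p = 0.104). Endothelial-like, Smoc2-led and committed-precursor-like nuclei had no Kcnj5 UMI among 383, 464 and 304 nuclei, which allows shares of up to 0.783%, 0.647% and 0.987% of nuclei with a UMI. For none of the 10 genes did the highest class pass an adjusted p of 0.05 against the next. An unadjusted p under 0.05 was reached by 3 of 10, and no other tool was run for this test. Both classes were picked by their means in the same 6 libraries, so the ratio was chosen to favour the first. With the smallest possible p of 0.031 in this permutation, 1 gene alone could not pass the adjustment over 10 genes, however clear its separation. No conclusion is drawn from these calls.

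Oprm1 (ENSRNOG00000018191) was highest in Chst9-like nuclei, at 278 ± 11.6 CPM, followed by Slc5a7-led (180.0 ± 25.0), Inpp5d-led (119.5 ± 25.1) and Slc17a8-led nuclei (105 ± 16.2). Eccentric-like nuclei had 78.0 ± 8.08, Drd1-like 43.5 ± 4.58, Drd2-like 35.4 ± 12.2 and Drd3-Adamtsl1-like 17.1 ± 7.55 CPM. The class with the most Oprm1 therefore ranked next to the top in Kcnj3, while the class with the most Kcnj6 held the lowest neuronal Oprm1 level. In the Slc5a7-led class Kcnj3 stood at 385 CPM and Kcnj6 at 46.5 ± 18.0 CPM.

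Over all 23 class means of log2(CPM + 1), Pearson's r with Oprm1 was 0.54 for Gnaz, 0.52 for Gnal, 0.50 for Kcnj3, 0.44 for Kcnj9, 0.41 for Kcnj5, 0.34 for Kcnj6 and 0.28 for Gnai1. It was 0.03 for Gnaq, -0.13 for Gnai2 and -0.48 for Gnao1. Over the 16 neuronal classes alone it was 0.50 for Gnai1, 0.46 for Gnaz, 0.19 for Kcnj3, 0.06 for Kcnj5, 0.01 for Kcnj9, -0.01 for Gnal, -0.02 for Kcnj6 and -0.14 for Gnaq. For Gnao1 and Gnai2 it turned from below to above 0, at 0.18 and 0.16. The r of Gnal and of the 4 GIRK subunits was thus lower once glia and vascular classes were left out. These are descriptions, since the points share their 6 libraries and differ in depth. Computed in single libraries, r ranged from 0.357 to 0.616 for Kcnj3 and from 0.178 to 0.457 for Kcnj6.

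**Figure D2:**
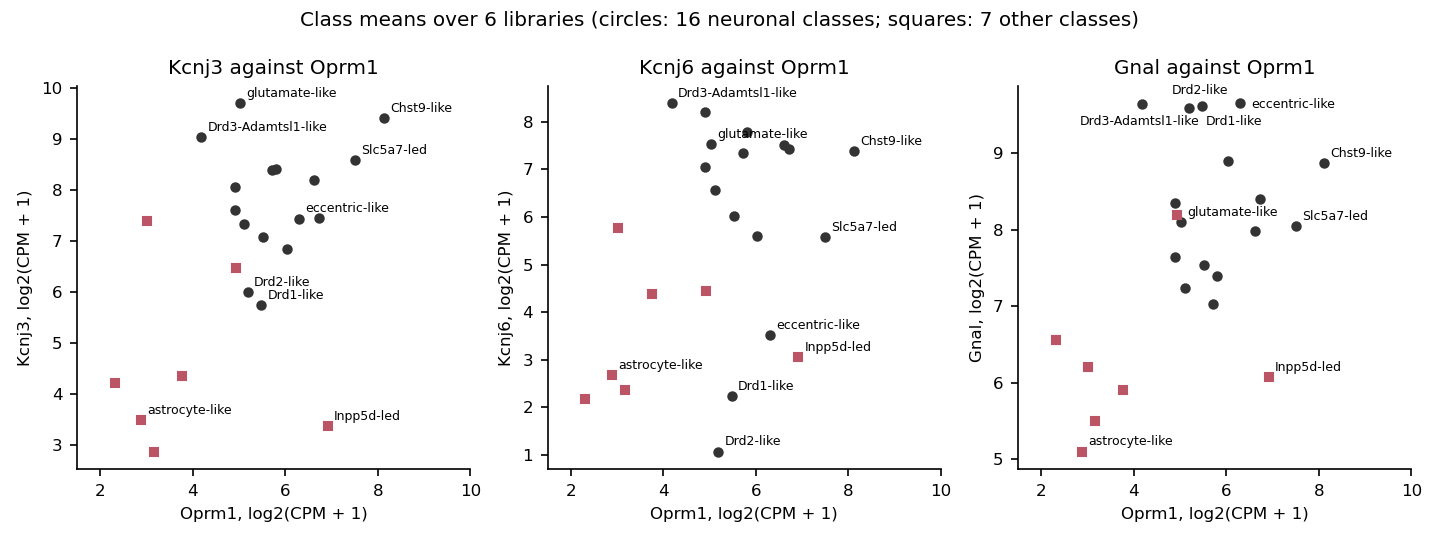
Kcnj3, Kcnj6 and Gnal (vertical axes) against Oprm1 (horizontal axes), each as log2(CPM + 1) of class means over 6 libraries; circles are 16 neuronal and squares 7 other classes. Chst9-like nuclei lie at the right with high Kcnj3, whereas Drd3-Adamtsl1-like nuclei combine the highest Kcnj6 (334 CPM) with low Oprm1 (17.1 CPM).

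By the same measure over 23 classes and 13268 genes, the genes most like each of the 10 were as follows. Gnal was closest to the unnamed gene ENSRNOG00000067998 (r = 0.930) and Rab40b (0.929), Gnao1 to Tom1l2 (0.8999), and Gnai1 to Spock3 (0.819) and Pex5l (0.810). Gnai2 was closest to B2m (0.962), the light chain of MHC class I, Gnaz to Septin3 (0.915) and Gnaq to Lrch1 (0.916). Kcnj3 was closest to Dcx (0.926), a microtubule-binding protein, and Chrna7 (0.922), a nicotinic receptor subunit. Kcnj6 was closest to Plxna1 (0.883), Kcnj9 to Acp1 (0.883), and Kcnj5 to LOC120100725 (0.938) and C3ar1 (0.897), a complement receptor gene.

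The Chst9-like class, richest in Oprm1, was then compared with the Drd1-like, Drd2-like and eccentric-like classes. It differed from all 3 in the same 3 ways. Its GIRK1 and GIRK2 transcripts were many times higher, its Gnai1 and Gnai2 transcripts were higher by smaller amounts, and its Gnal transcript was lower. These are differences from the 3 compared classes and not from neurons at large. Over the 16 neuronal classes the median level was 147 CPM for Kcnj6, 18.5 for Gnai2 and 300 for Gnal. Kcnj6 and Gnai2 of Chst9-like nuclei were near these medians, and the 3 compared classes lay below them. Gnal of Chst9-like nuclei lay above its median.

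For Kcnj3 the Chst9-like libraries gave 750, 696 and 723 CPM with saline and 667, 572 and 686 CPM with naloxone. The Drd1-like sums of the same libraries gave 45.0, 50.9, 64.9, 60.1, 49.1 and 45.3 CPM, so no library of one class came near those of the other. The fitted difference was 3.54 ± 0.06 (log2 ± SE, edgeR's quasi-likelihood F-test with library as a block, adjusted p = 4.65e-23), and it was 3.26 ± 0.07 against Drd2-like and 1.87 ± 0.05 against eccentric-like nuclei. For Kcnj6 the Chst9-like libraries ranged from 148 to 182 CPM, with a median of 167, and the Drd1-like libraries from 2.79 to 4.88 CPM. The differences were 5.32 ± 0.07, 7.03 ± 0.11 and 3.87 ± 0.11 against Drd1-like, Drd2-like and eccentric-like nuclei. The first 2 sizes rest on Drd1-like and Drd2-like means that are no higher than those of glia, part of which may be free RNA. Kcnj9 differed by 0.26 ± 0.10 from Drd1-like nuclei (adjusted p = 0.0270, 0.214 with DESeq2), and it no longer passed when saline replicate 2 or 3, or naloxone replicate 4 or 6, was left out. Its differences from Drd2-like and eccentric-like nuclei were 0.41 ± 0.10 (0.0532 with DESeq2) and 0.81 ± 0.16.

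Among the alpha subunits Gnal ranged from 409 to 507 CPM in the Chst9-like libraries and from 748 to 824 CPM in the Drd1-like ones, without overlap. The fitted differences were -0.91 ± 0.03, -0.89 ± 0.04 and -0.89 ± 0.04 against Drd1-like, Drd2-like and eccentric-like nuclei. Gnai2 ranged from 16.7 to 26.0 CPM in Chst9-like and from 9.77 to 11.5 CPM in Drd1-like libraries, with differences of 0.84 ± 0.09, 0.94 ± 0.09 and 0.99 ± 0.14. Gnai1 differed by 0.24 ± 0.04, 0.97 ± 0.05 and 0.77 ± 0.06, the first being close to 0 (0.01) when the nuclei were clustered more coarsely. Gnao1 was lower than in Drd2-like (-0.31 ± 0.03) and eccentric-like nuclei (-0.19 ± 0.04) and did not pass against Drd1-like nuclei (0.02 ± 0.03). Gnaz was higher than in Drd2-like nuclei only (0.72 ± 0.16), where it stood at 8.38 against 4.55 CPM, and whether the 3 differences of Gnaz differ was not tested. Gnaq passed in none of the 3 comparisons, with differences from -0.004 to 0.04 (unadjusted p from 0.243 to 0.905). Scaling by library totals alone moved the median of all genes to 0.19, 0.20 and 0.12 (0.03, 0.03 and 0.01 with TMM factors). Gnaq then stood at 0.16, 0.22 and 0.12, that is, near the median of all genes, and passed in each. Under the same scaling Gnao1 (0.18) and Gnaz (0.36) passed against Drd1-like nuclei, and Gnao1 no longer passed against eccentric-like nuclei (-0.08).

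Of the 9 genes with enough counts, 6 passed against Drd1-like nuclei (5 higher, 1 lower), 8 against Drd2-like (6 higher, 2 lower) and 7 against eccentric-like nuclei (5 higher, 2 lower). Kcnj5 was too low to test. Such counts say little by themselves, because of all genes tested 55.3% passed against Drd1-like nuclei (28.5% higher and 26.8% lower). The shares were 52.8% (27.1% and 25.7%) against Drd2-like and 40.7% (20.3% and 20.4%) against eccentric-like nuclei. With library totals alone the split against Drd1-like nuclei was 6296 higher and 2428 lower, in place of 3808 and 3581. The median size of the change over the 9 genes was 0.26, 0.89 and 0.81 in the 3 comparisons, beside 0.27, 0.26 and 0.23 over all genes. By size, Kcnj6 ranked 46 of 13370 genes against Drd1-like, 6 of 12810 against Drd2-like and 42 of 11779 against eccentric-like nuclei.

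**Figure D3:**
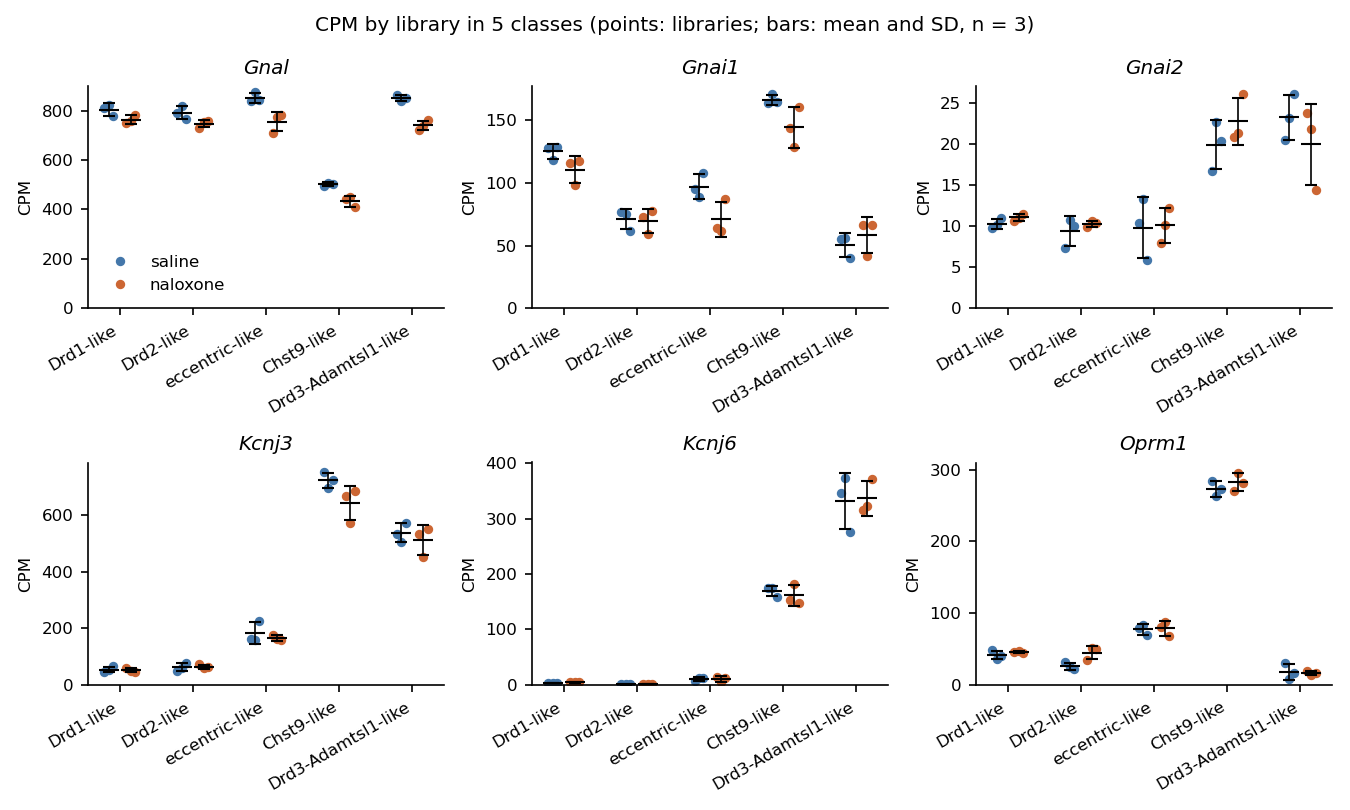
CPM of 5 of the genes and of Oprm1 in 5 classes; each point is 1 library (blue saline, orange naloxone), and bars give the mean and SD of 3 libraries. Kcnj3, Kcnj6 and Oprm1 of Chst9-like nuclei lie far above those of Drd1-like, Drd2-like and eccentric-like nuclei, Gnal lies below, and Drd3-Adamtsl1-like nuclei share the high Kcnj3 and Kcnj6 but not the Oprm1.

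Related genes of the path were read from 5 lists in the comparison of Chst9-like with Drd1-like nuclei. Of 11 beta and gamma subunits tested, 4 were higher and 3 lower (median change -0.04, beside 0.03 over all genes). The largest changes were in gamma subunits, with Gng4 at 3.39 ± 0.05 (197 against 16.8 CPM), Gng2 at 2.84 ± 0.09 (155 against 19.7 CPM) and Gng12 at 2.30 ± 0.25 (5.33 against 0.901 CPM). Gng12 was low in both classes, beside 258 CPM in oligodendrocyte-like and 164 CPM in astrocyte-like nuclei. Summed oligodendrocyte markers were 229 CPM in Chst9-like and 154 CPM in Drd1-like nuclei. The part of RNA from other classes in the Gng12 difference was not tested. Of 10 other inward rectifiers and GIRK partners tested, 0 were higher and 6 lower (median -0.31). The 3 largest were Kctd8 (-2.81 ± 0.04, 163 against 1022 CPM), Kctd12 (-2.06 ± 0.24, only 1.16 against 4.27 CPM) and Kctd16 (-0.69 ± 0.03), auxiliary subunits of the GABA-B receptor. Of 5 chaperones and modulators of alpha subunits, 2 were higher and 2 lower, with Gpsm2 at -0.88 ± 0.14, Ric8b, a chaperone of Gs and Golf, at -0.78 ± 0.04 and Gpsm1 at 0.20 ± 0.08.

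Of 7 rows of other alpha subunits, 4 were higher and 1 lower. Gna14, of the Gq family, was at -0.80 ± 0.27, from only 1.42 against 2.22 CPM. The 2 rows that carry the symbol Gnas were at 0.70 ± 0.21 and 0.65 ± 0.09. Because 2 identifiers share that symbol, the reads of Gnas may be split between them and its values are uncertain. Of 19 receptors that couple to Gi or Go, 6 were higher and 12 lower (median -0.45). They include Chrm2, the M2 muscarinic receptor, at 3.23 ± 0.19 (11.02 against 1.06 CPM), whereas Grm8 (3.57 ± 0.04) and Drd3 (-3.40 ± 0.09) were themselves markers used to name classes and are no finding here. The receptor list also holds Drd2, another such marker, and Oprm1, by whose level the Chst9-like class was chosen for comparison. The receptor counts include such genes, and no count without them was made.

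Comparing naloxone with saline asks whether transcripts of the path differed 1 h after the antagonist. None of the 10 genes passed in any of 24 fits, over 23 classes and the sum of all nuclei. That is 0 of 183 tests of a gene in a fit with edgeR's quasi-likelihood F-test, where 0.193% of all genes tested passed over the same fits. Of the 183 tests 15 (8.20%) had an unadjusted p under 0.05, a share near the 8.83% of all genes. DESeq2 called 1 of them, Kcnj6 in the sum of all nuclei. The 15 were not spread evenly over the genes. Kcnj6 had 6 of them in its 19 fits, Gnai1 and Gnal had 3 each, and Gnai2, Gnaq, Gnaz and Kcnj5 had 0. The shares called were 0.258% in Drd1-like, 0.526% in Drd2-like and 0.906% in astrocyte-like nuclei, so calls were rare throughout. Nothing in the labels says how the animals were divided over the libraries beyond sex, so the p-values measure the spread between these pools.

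The largest single-class difference in a channel gene of the Drd1-like, Drd2-like, eccentric-like and Chst9-like classes was that of Kcnj6 in Drd1-like nuclei. The saline libraries had 2.79, 3.31 and 2.83 CPM and the naloxone libraries 4.10, 4.88 and 4.20, without overlap (log2 change 0.55 ± 0.18, unadjusted p = 0.0105, adjusted p = 0.229 with edgeR). These values are close to those of glia and within the class were highest in the Pde11a-led cluster, as given above. Over all nuclei Kcnj6 was 58.9, 61.6 and 56.2 CPM with saline and 83.6, 66.8 and 79.5 CPM with naloxone (0.37 ± 0.09, adjusted p = 0.175 with edgeR and 0.0290 with DESeq2). Without naloxone replicate 5 the change was 0.47 with an adjusted p of 0.0158. In a sum over all nuclei, more nuclei of a type and more RNA per nucleus cannot be told apart. The Drd3-Adamtsl1-like class, the highest in Kcnj6, made up 3.01%, 2.11% and 3.57% of nuclei with saline and 3.72%, 4.44% and 4.02% with naloxone. Within that class the change of Kcnj6 was 0.05, with 346, 373 and 275 CPM against 315, 322 and 372 CPM, and the groups overlapped. The shares of other classes high in Kcnj6 overlapped between the groups. The Ano2-led class made up 3.05%, 3.11% and 0.916% with saline and 4.17%, 1.59% and 2.86% with naloxone. For the Slc17a6-led class these were 1.35%, 0.870% and 0.950% against 2.12%, 0.973% and 1.55%. The part of class shares in the sum over all nuclei was not tested.

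The fitted change of Gnal passed in no class. In Chst9-like nuclei Gnal was 494, 507 and 504 CPM with saline and 443, 449 and 409 CPM with naloxone, without overlap (-0.20 ± 0.07, unadjusted p = 0.00759, adjusted p = 0.315 with edgeR). The change was below 0 in 18 of 22 class fits, with a median of -0.15, and for Kcnj6 it was above 0 in 16 of 18 class fits, with a median of 0.17. All fits draw on the same 6 libraries. The median change of all genes in the 23 class fits lay between -0.01 and 0.02. Gnai1 in oligodendrocyte-like nuclei had a change of -0.40 ± 0.15 (adjusted p = 0.321 with edgeR, 0.0398 with no filter on low counts), and all 3 naloxone libraries given above lay below the saline ones. The Gpd1-led cluster of that class is almost wholly of naloxone nuclei, as given above, and the part of this shift in the result was not tested. In the Inpp5d-led class Gnao1 was counted at 1, 5 and 12 UMIs with saline and 17, 26 and 21 with naloxone (1.48 ± 0.44, adjusted p = 0.287 with edgeR). Markers of other glia in that class overlapped between the groups for astrocytes (summed 1285 to 1629 against 1381 to 1492 CPM) and oligodendrocytes (824 to 1040.5 against 993 to 1528). Those of precursors did not (149 to 163 against 199 to 286), and their part in the result was not tested.

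**Figure D4:**
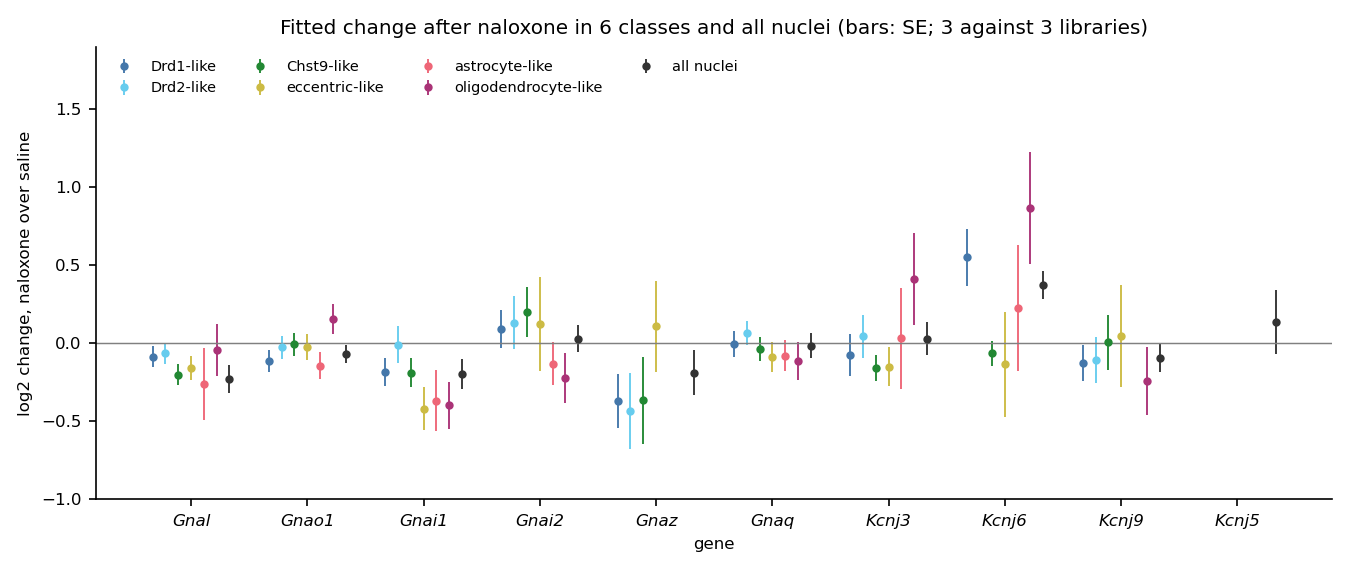
Fitted log2 change, naloxone over saline, of the 10 genes (horizontal axis) in 6 classes and in all nuclei (colours); bars give the SE from 3 against 3 libraries. Genes too low to test in a class have no point, and no point passed an adjusted p of 0.05, Kcnj6 in Drd1-like nuclei (0.55) included.

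Whether the change after naloxone differed between classes was tested directly. For the 9 genes tested, 0 passed in Chst9-like against Drd1-like nuclei, where 0.254% of all genes did, and 0 in Drd2-like against Drd1-like nuclei, where 1.49% did (edgeR's quasi-likelihood F-test). DESeq2 also called 0 of them in both. Among them Kcnj6 had a difference of -0.61 ± 0.16 in the first comparison (adjusted p = 0.157 with edgeR) and rests on the same low Drd1-like level. Unadjusted p under 0.05 was reached by 1 of the 9 genes in the first comparison and 0 in the second.

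Related genes of the lists did pass in 3 classes. Gng2, a gamma subunit, was 11.9, 11.9 and 12.9 CPM with saline and 38.6, 44.3 and 44.7 CPM with naloxone in Drd2-like nuclei (1.82 ± 0.11, adjusted p = 3.86e-06 with edgeR). The groups lay far apart. In Drd1-like nuclei it was 12.1, 17.5 and 11.8 CPM with saline and 26.7, 23.7 and 26.3 CPM with naloxone (0.88 ± 0.15, adjusted p = 0.0365 with edgeR, 0.0795 to 0.190 when saline replicate 1 or 3, or naloxone replicate 4 or 6, was left out). Gng2 is also high in astrocyte-like nuclei, at 262 CPM, and in Chst9-like nuclei, at 155 CPM. The summed astrocyte markers in Drd2-like nuclei were 38.4 to 67.1 CPM with saline and 44.8 to 60.3 CPM with naloxone. In Drd1-like nuclei they were 33.3 to 52.5 CPM with saline and 33.7 to 45.3 CPM with naloxone. The part of RNA from other classes in either Gng2 change was not tested.

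Oprm1 rose in Drd2-like nuclei from 31.3, 24.9 and 21.4 CPM to 34.6, 50.7 and 49.3 CPM (0.83 ± 0.16, adjusted p = 0.0341 with edgeR). It no longer passed when saline replicate 2 or 3, or naloxone replicate 5 or 6, was left out (adjusted p from 0.0781 to 0.204). In Chst9-like nuclei, where Oprm1 is highest, it stood at 284, 262 and 272 CPM with saline and 271, 295 and 282 CPM with naloxone, overlapping. The Gnas row ENSRNOG00000025889 rose in Drd2-like nuclei from 3.91, 3.91 and 2.86 CPM to 7.96, 6.66 and 7.49 CPM (1.07 ± 0.21, adjusted p = 0.0421 with edgeR). It was lost without any one library but naloxone replicate 5, at 0.0678 to 0.209, and oligodendrocyte-like nuclei had 6.00 CPM of it. The other Gnas row, ENSRNOG00000047374, held more counts and changed less in Drd2-like nuclei. It had 28.4, 24.9 and 30.4 CPM with saline and 41.9, 37.5 and 36.2 CPM with naloxone. That change did not pass (0.48 ± 0.11, adjusted p = 0.0640 with edgeR), nor did its 0.43 ± 0.12 in Drd1-like nuclei (adjusted p = 0.160). Adora1, the adenosine A1 receptor, rose in astrocyte-like nuclei from 39.2, 41.0 and 42.9 CPM to 54.6, 100.03 and 82.8 CPM (0.97 ± 0.18, adjusted p = 0.0243 with edgeR). It was lost without any one saline library or naloxone replicate 6, at 0.0860 to 0.0992. In oligodendrocyte-like nuclei Adora1 was 48.8, 68.8 and 65.5 CPM with saline and 82.4, 115 and 90.8 CPM with naloxone, without overlap. That change was 0.62 ± 0.14 and fell short of the threshold (adjusted p = 0.0632 with edgeR). Whether the Adora1 change differs between these classes was not tested.

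**Figure D5:**
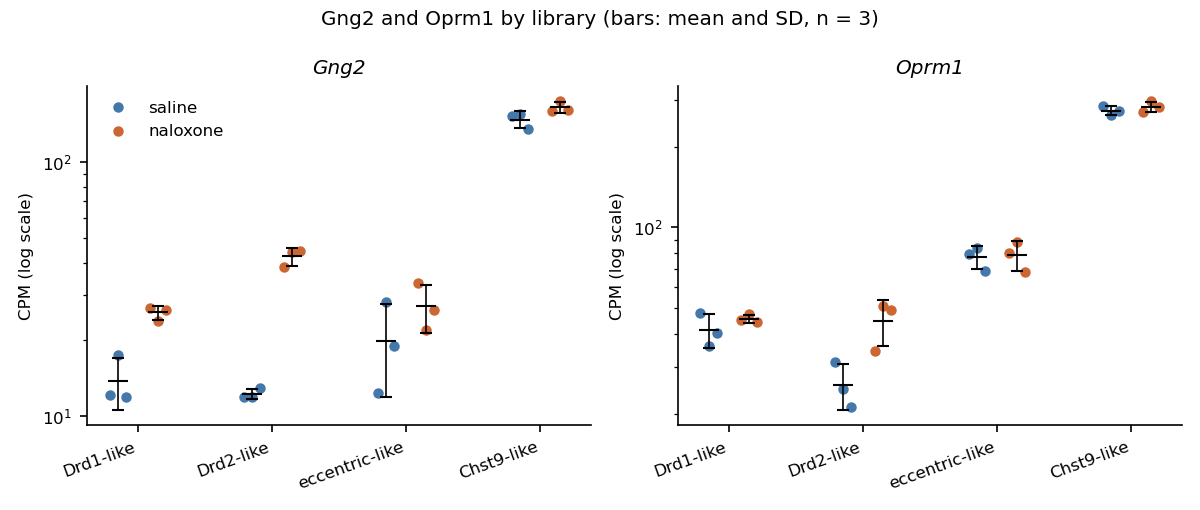
CPM on a log axis of Gng2 and Oprm1 in 4 neuronal classes; each point is 1 library and bars give the mean and SD of 3. Gng2 in Drd2-like nuclei goes from 12.2 ± 0.595 CPM to between 38.6 and 44.7 CPM, whereas in Chst9-like nuclei it is high with saline already (147 ± 11.04 CPM).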

How the data were processed

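Nuclear RNA of 6 libraries was counted with 10x GEM-X 3' chemistry. The deposited values are raw UMI counts per gene and barcode, made with Cell Ranger 9.0.1 per the file headers. The submitters' processing notes also name Seurat 5.2.1, R 4.4.0 and the build mRatBN7.2. The annotation, intron counting and barcode filter are not given in the sources used here. The labels speak of 44592 nuclei and about 23000 read pairs for each, and the files hold 64260 barcodes. Groups were taken from the treatment label.

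Nuclei with fewer than 500 genes or over 5% mitochondrial UMIs were dropped (61609 remained), and 2649 doublets (4.3%) were removed, called from simulated pairs at 0.4% per 1000 nuclei. The rest were clustered (scanpy 1.11.5, 3000 variable genes, 40 components, 15 neighbours, Leiden resolution 1.0) into 43 clusters, of which 8 with mixed markers (5199 nuclei) were set aside. The 10 genes, 5 pathway lists, mitochondrial, Xist and Y-linked genes were kept out of clustering. UMI counts were summed per library and class and tested with edgeR 4.0.16 (R 4.3.3; quasi-likelihood F-test, TMM, filterByExpr, Benjamini-Hochberg over all genes of a fit, threshold 0.05). Contrasts between classes had library as a block. Levels of the highest class were tested by exact two-sided sign flips. On simulated data with 200 genes changed by 1 (log2), the fit recovered 74.5% in Chst9-like, 82% in Drd1-like, 83.5% in Drd2-like and 76.5% in astrocyte-like nuclei, 77.5% over all nuclei and 90.5% in the contrast of Chst9-like with Drd1-like. False calls ran from 4 (all nuclei) to 13 (the contrast of Chst9-like with Drd1-like). The simulated counts were drawn with the trended dispersion of each fit. Smaller changes, such as those of Gnal and Kcnj6 after naloxone, were not simulated, so these shares do not apply to them. In the simulated contrast of Chst9-like with Drd1-like, both classes had 1 shared mean profile apart from the 200 changed genes. In the data 55.3% of genes passed there, so the 90.5% recovered and the 13 false calls do not describe the real contrast. UMI counts limit low genes, and intervals would cover counting error only.

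The genes named are all 10 members and Oprm1, each list gene called in a naloxone fit, the 3 called list genes with the largest change between Chst9-like and Drd1-like nuclei, and the 1 or 2 genes most like each member (at least 10 CPM in a class). Members, lists and markers were chosen with earlier results of these data known. The alternatives were DESeq2 1.42.0, RLE factors, library totals, no filter, leaving out single libraries, a minimum of 1000 genes, keeping doublets, resolution 0.5, a marker gate per nucleus, and shares after thinning to 1000 UMIs. The list genes Gngt2 and the markers Tac1, Chat, Slc18a3, Lhfpl3 and Itgam were not analysed here. No sequences are printed.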

Additional observations from a re-analysis of the deposited data

Results flagged for a closer look

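For 5 genes of the related lists the change after naloxone differed between 2 neuronal classes by the class by treatment term (edgeR's quasi-likelihood F-test, library as a block, adjusted over all genes). None of the 10 subunit genes did so. Of all genes tested, 1.49% passed this term for Drd2-like against Drd1-like and 0.254% for Chst9-like against Drd1-like nuclei. The terms are given here for all 6 libraries only. Between Drd2-like and Drd1-like nuclei the change was larger in Drd2-like by 0.95 ± 0.15 for Gng2 (log2 ± SE, adjusted p = 4.14e-04), by 0.71 ± 0.12 for Oprm1 (adjusted p = 0.00121) and by 0.27 ± 0.06 for Gabbr1 (adjusted p = 0.0117), a GABA-B receptor subunit. It was smaller by the signed values -0.72 ± 0.17 for Oprk1 (adjusted p = 0.0318), the kappa opioid receptor, and -0.19 ± 0.04 for Gng7 (adjusted p = 0.0204), the gamma subunit that pairs with Golf in the striatum. Gng7 in Drd2-like nuclei was 549, 590.4 and 505 CPM with saline and 438, 444 and 457 CPM with naloxone, and Oprk1 10.7, 10.3 and 15.8 against 8.31, 6.53 and 5.12 CPM. Between Chst9-like and Drd1-like nuclei the change of Gng2 differed by -0.70 ± 0.11 (adjusted p = 0.00475), with Chst9-like libraries at 152, 155 and 134 CPM with saline and 159, 173 and 160.0 CPM with naloxone. The term compares ratios over unlike bases. Mean Gng2 went from 147 to 164 CPM in Chst9-like and from 13.8 to 25.6 CPM in Drd1-like nuclei. In CPM the gain was thus not smaller in Chst9-like nuclei, and a difference in CPM was not tested.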

How the results depend on the processing

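The count of subunit genes called after naloxone was 0 and became 1 with no filter on low counts and 1 with DESeq2, and ranged from 0 to 1 with single libraries left out. The count of genes whose highest and next class differed past the threshold was 0 and became 3 with the marker gate, which gave both classes for 3 genes only, so that p was adjusted over 3 genes in place of 10. Gnal and Gnai1 kept the highest class above the next there, and Kcnj3 passed in the opposite direction. The count of genes with r of at least 0.5 to Oprm1 was 3, became 0 over neuronal classes, and ranged from 1 to 3 with single libraries left out. Signs turned in 10 single values, most near 0. Against Drd1-like nuclei Gnao1 became -0.0090 without the filter and -0.032 with the marker gate. Gnaq became 0.16 with library totals and 0.10 with the gate, and ranged from -0.011 to 0.0070 (without naloxone replicate 6) with single libraries left out. In the step from the highest to the next class, Gnaz ranged from -0.65 to 0.11 (without naloxone replicate 5) with single libraries left out, Gnal became -0.0082 with doublets kept, Gnaq -0.026 at resolution 0.5, Gnao1 -0.011 as thinned shares, and Kcnj3 -0.76 with the gate, which placed Chst9-like above glutamate-like nuclei. The cause was not tested. Of the other values of single genes, 752 stayed on their side, 31 lost a call, 12 gained one and 16 moved; of the main counts 79 stayed and 6 moved. At resolution 0.5 eccentric-like and Chst9-like nuclei merged, so their contrast was not run. No paired analysis was possible because the groups share no replicate numbers. Depth limits Kcnj5, Gnaz and Kcnj9 most.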

Other observations

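The 5 related lists were also read against Drd2-like and eccentric-like nuclei, with the shares of all genes called given in the report. Against Drd2-like nuclei, Chst9-like nuclei had 5 of 11 beta and gamma subunits higher and 4 lower, 1 of 9 inward rectifiers and partners higher and 6 lower, and 9 of 19 receptors higher and 6 lower. Against eccentric-like nuclei the same lists gave 5 of 11 higher and 2 lower, 0 of 8 higher and 3 lower, and 6 of 17 higher and 8 lower. Other alpha subunits gave 1 of 7 higher and 2 lower, and 2 of 6 higher and 0 lower. Chaperones and modulators gave 2 of 5 higher and 2 lower, and 1 of 5 higher and 1 lower. The receptor list holds Drd2, Drd3 and Grm8, which were used to name classes, and Oprm1, by which the Chst9-like class was chosen. The directions of such genes were partly set in advance, so no conclusion is drawn from the receptor counts.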
